A study of Mus musculus with 33 samples.

Results

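The comparison described here is JQ1 against vehicle in the CA1 region of the hippocampus of APP mice, measured by RNA sequencing in 12 of the 32 samples with values in this series. Samples were taken from the labels: 6 APP mice that received JQ1 at 50 mg/kg intraperitoneally for 10 days, and 6 APP mice that received vehicle (10% DMSO) in the same way for 10 days. All 12 mice belonged to the APP line in a C57B/6 background and were 8 to 10 months old. In this line, the Thy1 promoter drives human transgenes, a mutant APP among them, in neurons, and the labels put JQ1-treated and vehicle-treated mice in the same line. By the methods, mice of the APP line that went through behavioral testing were female, and the injected solution also held cyclodextrin. CA1 was dissected on the day after the probe test of a water maze, as the methods describe. Besides them, 4 vehicle-treated aged mice titled WT entered the same fit, to estimate the spread, and their strain label names the APP line as well. Another WT sample in the labels was not analysed here. A second experiment, with 8 JQ1-treated and 8 vehicle-treated young WT mice, was used only to set values side by side.

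BET proteins carry bromodomains that bind acetylated lysines on histones, and they help to bring the elongation kinase P-TEFb to promoters and enhancers. JQ1 occupies these bromodomains and so displaces BET proteins from chromatin. In dividing cell lines, the drug is known for lowering Myc and raising Hexim1, a partner of the RNA that holds P-TEFb inactive. In CA1, whose pyramidal neurons send the output of the hippocampus, acetylation of histones is linked to the transcription that follows learning.

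Gene counts summed to 14605459 to 24441065 per library with JQ1 and to 18329265 to 25339482 with vehicle, so that 3 reads corresponded to 0.118 to 0.205 CPM (gene counts scaled to library size with TMM factors) in the 16 aged libraries. No pair of libraries of one group agreed within sampling noise. JQ1 replicates 3 and 4 stood apart from the other 14 on the first principal component, which held 30.6% of the variance, with scores of 73.8 and 76.9, followed by vehicle replicate 4 (41.4) and WT replicate 1 (40.8), while the other 12 lay between −33.2 and 4.96. Markers of CA1 pyramidal neurons were present in every library, with a summed level of 1343 to 1964 CPM in JQ1-treated mice and 1462 to 1887 CPM in vehicle-treated mice over 9 genes. Choroid plexus markers, a sign of neighbouring tissue, summed to 26.6 to 145 CPM and 25.1 to 105 CPM in these groups. In WT mice they summed to 39.3 to 3228 CPM (median 45.5 CPM). The highest sum was that of WT replicate 4, where Ttr alone had 3065 CPM. Tdo2, from the list of CA2, CA3 and dentate markers, had 45.9 and 31.1 CPM in JQ1 replicates 3 and 4. It had 19.2 CPM in vehicle replicate 4 and 0.971 to 6.39 CPM in the other aged libraries. Ttr had 115, 85.2 and 75.02 CPM in the same libraries and 3.40 to 34.96 CPM in the other APP mice. Prox1 and C1ql2, of the same list as Tdo2, did not set these libraries apart. The part of dissection in the component scores and in the GC slopes given below was not tested.

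The transgenes and the genes of plaque-associated microglia gave a check of the labels, which 1 library did not pass. Thy1, whose own sequence is part of the transgene cassette, had 820 CPM in the library labelled JQ1 replicate 4, against 1618 to 2070 CPM in the other JQ1-treated mice, 1890 to 2342 CPM with vehicle and 841 to 1070 CPM in WT mice. App had 1781 CPM in this library, 2070 to 2496 CPM in the other JQ1-treated mice, 2253 to 2716 CPM with vehicle and 1854 to 1992 CPM in WT mice. For both genes, the library lay below every other APP mouse and below every WT mouse. Cst7, a cystatin of microglia at plaques, was at 0 in this library and at 14.2 to 38.2 CPM in the other 5 JQ1-treated mice, 13.7 to 55.6 CPM with vehicle and 0 to 0.245 CPM in WT mice. Itgax and Clec7a, receptors of the same cells, were at 0.333 and 0.200 CPM there, inside the WT ranges of 0.299 to 0.506 and 0.127 to 0.590 CPM. The prion gene Prnp, which is not part of the transgenes, was at 1245 CPM in this library and at 1140 to 1434 CPM over the 6 JQ1-treated mice. The results are therefore given with all 12 libraries and without the library labelled JQ1 replicate 4.

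**Figure D1:**
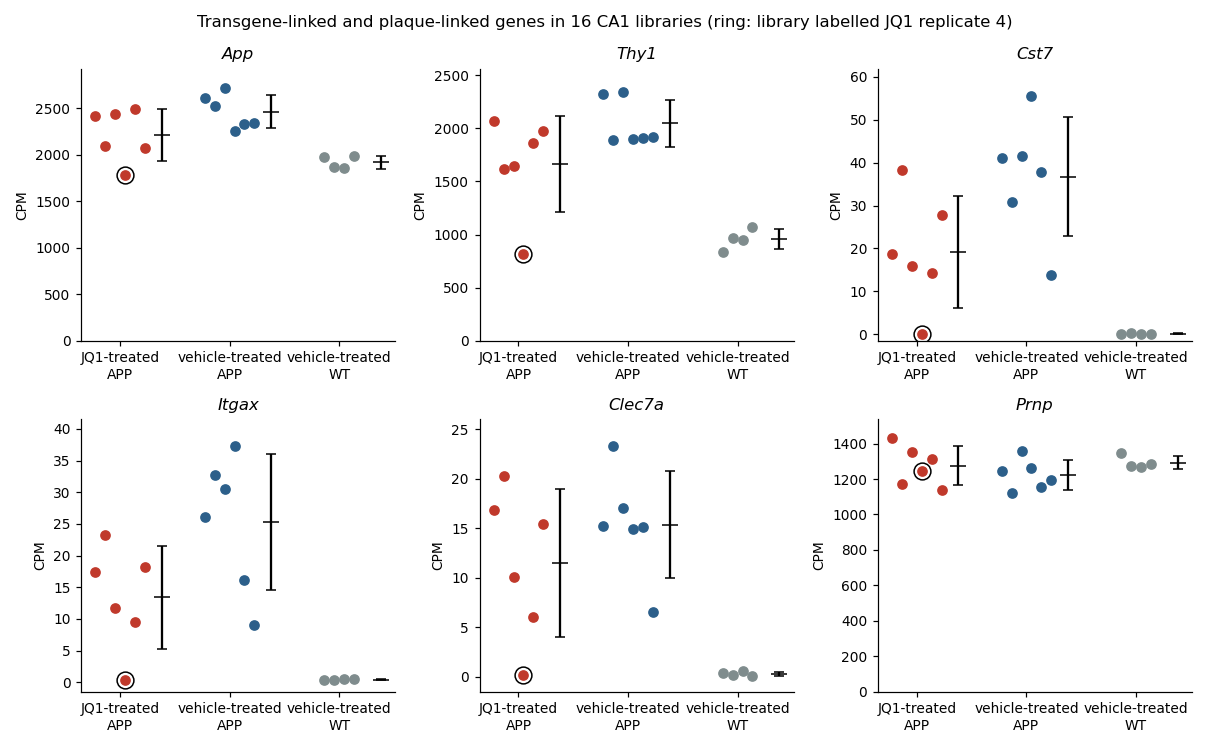
Level in CPM of 6 genes in each of the 16 aged libraries, by group, with the mean and SD of each group beside its points. The ringed library, labelled JQ1 replicate 4, lies at or below the WT level of Thy1 (820 CPM), Cst7 (0 CPM), Itgax (0.333 CPM) and Clec7a (0.200 CPM), and among the other libraries for Prnp.

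Of 16962 genes tested, 184 (1.08%) passed an adjusted p of 0.05 (edgeR quasi-likelihood test, Benjamini-Hochberg), 105 raised (0.619%) and 79 lowered (0.466%) in JQ1-treated mice. The raised genes changed by 0.30 to 2.65 on the log2 scale, with 19 above 1.5, whereas all lowered genes but Oscar, Vmn2r29, Gm26901 and Prr7 changed by less than 1. Without the library labelled JQ1 replicate 4, 73 genes passed (0.431%), 62 raised (0.366%) and 11 lowered (0.0649%), and 72 of them were among the 184. All 184 genes had the same direction in that fit. DESeq2 gave an adjusted p to 14049 genes and called 749 (5.33%), 371 raised (2.64%) and 378 lowered (2.69%). At an unadjusted p under 0.05 in edgeR, 17.6% of genes passed, 8.42% higher and 9.19% lower. All 6 JQ1-treated mice were above all 6 vehicle-treated mice in 0.878% of genes and below them in 1.15%. Without WT replicate 1, 446 genes passed, and without JQ1 replicate 2, 65 genes passed. Only 59 of the 184, 49 raised and 10 lowered, passed in each of the 16 fits that left out 1 library.

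The genes called without the library labelled JQ1 replicate 4 were also read in that library. Because the vehicle-treated APP mice entered the choice of these genes, it was set beside the WT mice, whose levels were no part of the contrast. It lay above all 4 WT mice in 57 of the 62 raised genes (91.9%, against 21.5% of all genes tested) and below all 4 in 10 of the 11 lowered genes (90.9%, against 23.6%). This library also had a low slope on GC content, given below, and the part of that slope in these counts was not tested.

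Genes that changed differed from the rest in base composition, as shown by the plots of GC content. The transcripts of raised genes had a median GC content of 41.3%, those of lowered genes 60.1%, and those of all genes tested 49.8%. In the 10 equal classes of GC content, 90 of the 105 raised genes fell in the 2 lowest classes and 59 of the 79 lowered genes in the highest. The median log2 fold change ran from 0.22 in the class of lowest GC content to −0.25 in the class of highest, and from 0.19 to −0.22 without the library labelled JQ1 replicate 4. Raised genes were also long, with a median of 10887 exonic bases against 4570 in lowered genes and 4117 in all genes, and 10 of them (9.52%) were on the X chromosome, against 3.48% of all genes.

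The same trend was present between libraries before any gene was called. When each library's deviation from the mean log2 CPM was set against GC content across genes, the slope was 0.0103, −0.106, −0.245, −0.244, −0.018 and −0.0888 log2 units per 10 percentage points in JQ1 replicates 1 to 6. In vehicle replicates 1 to 6 it was 0.14, 0.087, 0.22, 0.077, 0.12 and 0.13. The slopes did not overlap between the groups (2-sided exact permutation test, p = 0.002165, the smallest that 6 against 6 allow). WT replicate 1, which received no JQ1, had a slope of −0.24, as low as JQ1 replicates 3 and 4, and the other 3 WT mice had 0.015 to 0.082. Multiply aligned reads numbered 52.0 to 77.2 for every 100 gene counts with JQ1 and 47.3 to 57.4 with vehicle (2-sided exact permutation test, p = 0.048). A treatment response that follows GC content and a difference of the libraries in GC content cannot be told apart from these counts.

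**Figure D2:**
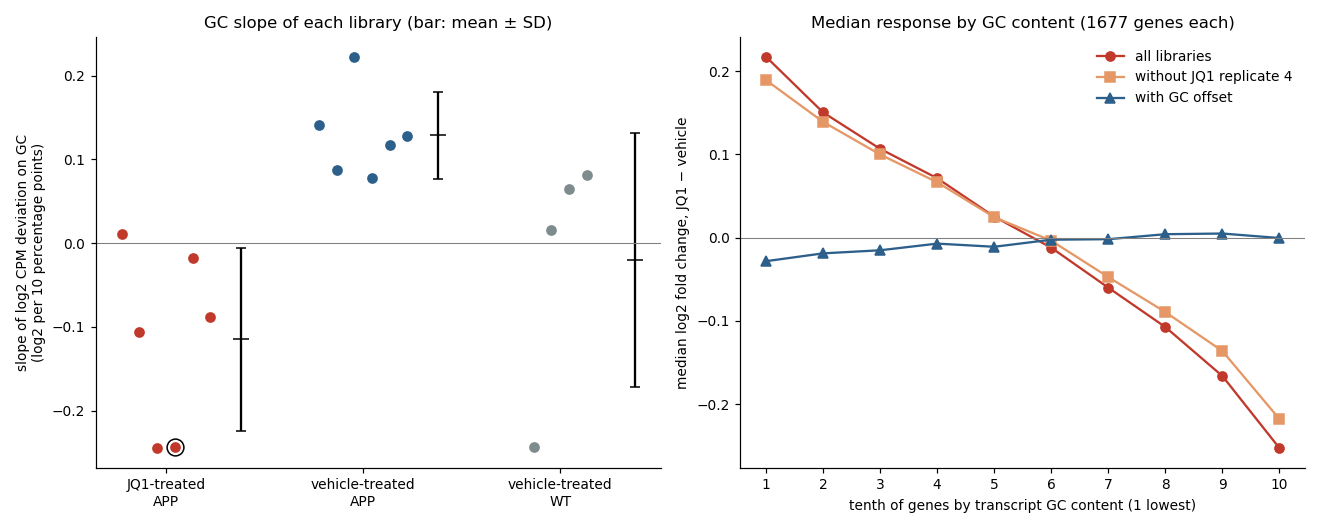
Left, slope of each library's log2 CPM deviation on transcript GC content, in log2 per 10 percentage points, by group with mean and SD, the library labelled JQ1 replicate 4 ringed. Right, median log2 fold change (JQ1 minus vehicle) in 10 classes of equal size ordered by GC content, which runs from 0.22 to −0.25 over all libraries and from −0.028 to −0.0005 with the GC offset.

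With an offset that removes a smooth dependence of each library on GC content, 25 genes passed (0.147%), 21 raised (0.124%) and 4 lowered (0.0236%). Of these, 24 were among the 184, and all 184 kept their direction. The 21 raised genes were Lnpep, Gucy1a2, Bmpr2, BC005561, Xkr4, Ptpn4, Stxbp5l, Fzd3, Fam135b, Sytl5, Kcnh5, Slc16a7, Ube3a, Usp9x, Vps13a, Sfpq, Atm, Clock, Wnk3 and a pair without a symbol. A GC content was known for 19 of the 21, and the pair without a symbol had none, so that the offset could not correct it. The lowered genes were Oscar, Pdlim7, Slc7a6 and Pkib, of which Pkib was not among the 184. Those of both lists that the rule for named genes did not select are given after their values were seen. With the offset and without the library labelled JQ1 replicate 4, 15 genes passed (0.0885%), all of them raised. Among them were Lnpep, Gucy1a2, Xkr4, Ptpn4, BC005561, Fzd3, Stxbp5l, Sfpq, Ube3a, Vps13a, Kcnh5 and Smc2, and the pair without a GC content was again counted. When the GC slope of the library was instead a covariate of the fit, Lnpep, Gucy1a2, Xkr4, Ptpn4 and Sfpq were the 5 genes that passed.

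WT replicate 1 gave a second view of the same genes, since it had a low GC slope without JQ1. This library also differed in some regional markers. Cpne4 was at 153 CPM, against 73.8 to 76.5 CPM in the other WT mice. Dsp was at 4.78 CPM, against 33.3 to 34.8 CPM, and Wfs1 at 160 CPM, against 244 to 344 CPM. Fibcd1, at 208 CPM, lay within their range (175 to 240 CPM). The part of GC slope and of dissection in the counts that follow was not tested. WT replicate 1 lay above the other 3 WT mice in 49 of the 105 raised genes (46.7%), in 5 of the 21 genes raised with the GC offset (23.8%) and in 38.4% of all genes. Of the 79 lowered genes, it lay below the other 3 WT mice in 70 (88.6%), against 36.3% of all genes. As an example of the first kind, Usp9x was at 93.3 CPM in WT replicate 1 and at 62.7 to 73.0 CPM in the other WT mice. Lnpep was at 3.34 CPM there and at 2.45 to 3.72 CPM in the others.

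The most strongly raised genes had few reads with vehicle and several times as many with JQ1, in each of the 6 mice. Lnpep encodes the insulin-regulated aminopeptidase, which cleaves oxytocin, vasopressin and related peptides at the cell surface. Its level was 25.9, 41.6, 33.7, 30.5, 29.5 and 23.4 CPM in JQ1 replicates 1 to 6 and 4.24, 8.85, 2.46, 4.63, 4.17 and 5.17 CPM in vehicle replicates 1 to 6. The lowest JQ1 value lay far above the highest vehicle value. The log2 fold change was 2.65 ± 0.23 (SE, n = 6 against 6, edgeR adjusted p = 9.3e-06), and 2.43 with the GC offset (edgeR adjusted p = 2.4e-05). Gucy1a2, a subunit of the guanylate cyclase that nitric oxide activates, stood at 9.03, 13.6, 12.7, 13.6, 9.86 and 12.2 CPM with JQ1. With vehicle it stood at 2.08, 2.57, 2.03, 0.754, 2.32 and 2.58 CPM, and in WT mice at 2.20 to 2.32 CPM. The groups did not overlap, and the log2 fold change was 2.51 ± 0.22 (SE, edgeR adjusted p = 9.3e-06).

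Xkr4, of a family of phospholipid scramblases, had 23.1, 25, 26.8, 27.5, 26 and 13.9 CPM in JQ1 replicates 1 to 6. In vehicle-treated mice, its level was 4.90, 7.86, 4.73, 3.93, 3.64 and 6.86 CPM. JQ1 replicate 6 was the lowest of its group and still above every vehicle-treated mouse, and the log2 fold change was 2.16 ± 0.20 (SE, edgeR adjusted p = 1.1e-05). Ptpn4, a tyrosine phosphatase of synapses, ranged from 17.5 to 25.6 CPM with JQ1 (median 22.2) and from 3.25 to 7.72 CPM with vehicle (median 5.11), a log2 fold change of 2.07 ± 0.19 (SE, edgeR adjusted p = 1.2e-05). Bmpr2, the type II receptor of bone morphogenetic proteins, had 28.5, 35.1, 37.6, 29.5, 33.3 and 18.1 CPM with JQ1 and 6.98, 13.3, 2.54, 2.26, 3.95 and 7.48 CPM with vehicle. Vehicle-treated mice differed widely among themselves for this gene, and its log2 fold change was 2.32 ± 0.36 (SE, edgeR adjusted p = 0.0058).

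Further genes with separated groups followed. Fzd3, a Wnt receptor of axon guidance, rose from 2.19 to 3.74 CPM with vehicle to 5.62 to 15.4 CPM with JQ1, a log2 fold change of 1.87 ± 0.23 (SE, edgeR adjusted p = 0.00040). The zinc finger gene Zfp871 rose by 1.99 ± 0.33 and the nuclear receptor corepressor Lcor by 1.94 ± 0.43 on the log2 scale (SE, edgeR adjusted p = 0.0080 and 0.037). With the GC offset, neither passed (edgeR adjusted p = 0.055 and 0.17), and without the library labelled JQ1 replicate 4 Lcor did not (edgeR adjusted p = 0.086). BC005561 was at 9.27 to 11.1 CPM with JQ1 and 0.978 to 3.61 CPM with vehicle. Far1os, a transcript named for its place opposite Far1, was at 0.733 to 1.65 CPM with JQ1 and 0 to 0.396 CPM with vehicle, close to the level that 3 reads give, and it did not pass without the library labelled JQ1 replicate 4 (edgeR adjusted p = 0.054) or with the GC offset (0.15). Whether the counting used the strand is not given in the sources used here, so its reads and those of Far1 cannot be told apart.

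**Figure D3:**
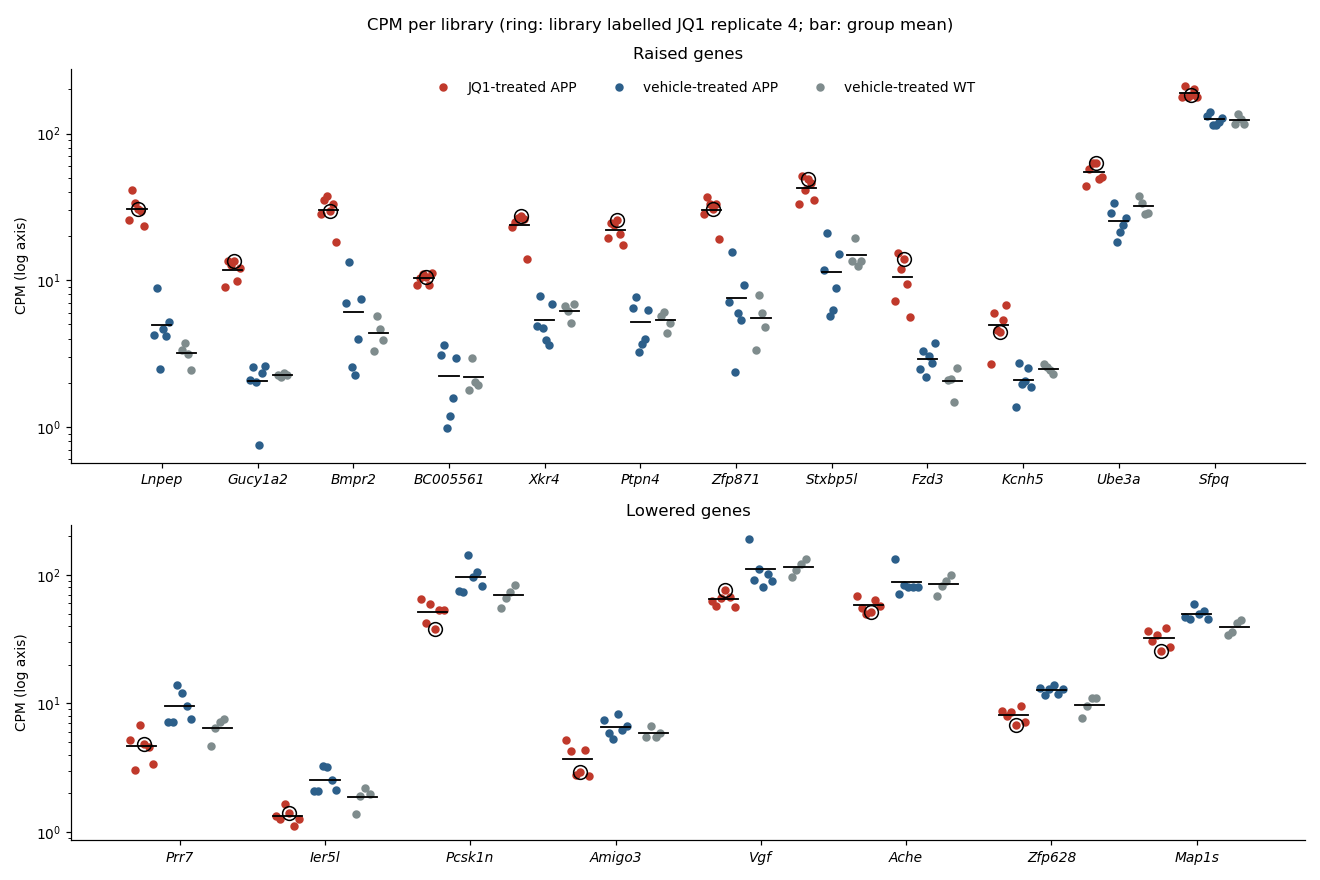
CPM on a log axis in each of the 16 aged libraries for 12 raised and 8 lowered genes, with a bar at each group's mean and a ring around the library labelled JQ1 replicate 4. That library entered the fit that called these genes. It lies on the JQ1 side of the vehicle-treated APP mice for every gene shown, for example at 30.5 CPM for Lnpep and 4.8 CPM for Prr7. For genes chosen as the largest changes with separated groups, the choice itself required this position, so it is no test of that library.

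Lowered genes changed less and lay higher in GC content. Pcsk1n encodes proSAAS, an inhibitor of the proprotein convertase that matures neuropeptides. Its level was 65.3, 42.1, 59.3, 37.9, 53.4 and 52.8 CPM with JQ1 and 74.9, 73.2, 142, 95.8, 106 and 81.9 CPM with vehicle, a log2 fold change of −0.88 ± 0.17 (SE, edgeR adjusted p = 0.015). Vgf, a secreted neuropeptide precursor, had 62.3, 57.2, 66.0, 76.3, 67.4 and 56.6 CPM with JQ1 and 189, 90.9, 110, 80.2, 101 and 90.3 CPM with vehicle. The groups did not overlap for either gene, although vehicle replicate 4 and JQ1 replicate 4 lay close for Vgf, whose log2 fold change was −0.78 ± 0.17 (SE, edgeR adjusted p = 0.034).

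Map1s, a microtubule-associated protein, fell by 0.63, the zinc finger gene Zfp628 by 0.64, and Ache, acetylcholinesterase, by 0.60 on the log2 scale (edgeR adjusted p = 0.0068, 0.011 and 0.038). Among the 10 largest falls with separated groups, Pcsk1n, Map1s and Zfp628 were called without the library labelled JQ1 replicate 4 as well, and with the GC offset none of the 10 passed, at edgeR adjusted p of 0.067 (Gm26901) to 0.55 (Vgf). Oscar, a receptor of osteoclasts and myeloid cells that is outside the rule for named genes, had 0.282, 0, 0.190, 0, 0.0533 and 0.0662 CPM with JQ1 and 0.971, 2.13, 2.07, 2.37, 2.32 and 0.223 CPM with vehicle. The groups overlapped at this low level, where most JQ1 values were under that of 3 reads, and it passed with the GC offset and without the library labelled JQ1 replicate 4 (edgeR adjusted p = 0.032 and 0.023).

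Brd2, Brd3 and the genes that report on JQ1 in cell lines did not pass the test. The BET genes Brd2 and Brd3 had log2 fold changes of −0.03 and −0.08. Hexim1 had 54.5, 58.9, 71.7, 73.2, 68.2 and 61.6 CPM with JQ1 and 60.4, 72.5, 81.5, 79.5, 70.3 and 62.7 CPM with vehicle. The groups overlapped, and its log2 fold change was −0.14 ± 0.09 (SE, edgeR adjusted p = 0.45). Myc, at 4.8 to 9.28 CPM with JQ1 and 7.17 to 10.7 CPM with vehicle, had −0.24 ± 0.16 (SE, edgeR adjusted p = 0.46). Of 6 genes usually raised in cell lines and 6 usually lowered, edgeR called 0 and DESeq2 0, with 0 and 1 at an unadjusted p under 0.05 and medians of −0.12 and 0.03. Over all genes tested, the median was −0.0010, and edgeR called 1.08%. At an unadjusted p under 0.05, 17.6% passed, 8.42% higher and 9.19% lower. These shares are the background for the counts in this list and in those that follow.

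In the lists of transcription elongation and initiation, no gene was called by edgeR. Among P-TEFb and its inhibitors (7 genes), the super elongation complex (11 genes), and the pausing factors NELF and DSIF (6 genes), edgeR called 0 genes, with 3, 2 and 1 at an unadjusted p under 0.05, and DESeq2 called 1, Aff4. Aff4, a scaffold of the super elongation complex, was at 202 to 276 CPM with JQ1 and 154 to 242 CPM with vehicle (log2 fold change 0.36 ± 0.10, SE, edgeR adjusted p = 0.082). Cdk9, the kinase of P-TEFb, was at 70.4 to 95.6 CPM and 84.6 to 103 CPM (log2 fold change −0.25, edgeR adjusted p = 0.21). None of 33 Mediator subunits and none of 37 genes of RNA polymerase II and TFIID was called by edgeR, with 6 and 8 at an unadjusted p under 0.05, and DESeq2 called 2 in each. Outside these lists, the elongation factor Iws1 rose by 0.43 on the log2 scale (edgeR adjusted p = 0.047), but did not pass without the library labelled JQ1 replicate 4 (0.092) or with the GC offset (0.58). Of 21 histone genes tested, edgeR and DESeq2 called 0, and 1 had an unadjusted p under 0.05.

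Among enzymes that modify histones, single members passed in either direction. Sirt6, a deacetylase of the sirtuin family, fell from 22.7 to 30.7 CPM with vehicle to 14 to 21.8 CPM with JQ1 (log2 fold change −0.54 ± 0.12, SE, edgeR adjusted p = 0.038), the 1 called gene of 18 deacetylases. Dot1l, a methyltransferase of the histone core, fell by 0.52 (edgeR adjusted p = 0.047), the 1 called gene of 30 methyltransferases, and Jmjd1c rose by 0.39 (edgeR adjusted p = 0.045), the 1 called gene of 19 demethylases tested. For Dot1l and Sirt6 the groups were separated, whereas they overlapped for Jmjd1c. None of these passed without the library labelled JQ1 replicate 4 or with the GC offset. At an unadjusted p under 0.05, 5 deacetylases (1 higher, 4 lower), 12 methyltransferases (5 and 7) and 6 demethylases (4 and 2) passed. DESeq2 called 0 raised and 2 lowered deacetylases, 1 and 2 methyltransferases, and 3 and 1 demethylases. Acetyltransferases (13 genes) and genes of DNA methylation (13 genes) held 0 calls in edgeR, with 1 and 2 at an unadjusted p under 0.05, and 0 and 1 in DESeq2.

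In the lists of remodellers and of proteins that shape chromosomes, the called genes were all raised. Atrx, a remodeller of repetitive chromatin, had 179, 215, 230, 226, 208 and 179 CPM with JQ1 and 132, 161, 115, 159, 138 and 153 CPM with vehicle. All JQ1-treated mice were higher, with a log2 fold change of 0.53 ± 0.10 (SE, edgeR adjusted p = 0.011). Pbrm1, a bromodomain subunit of the SWI/SNF complex, rose by 0.44 ± 0.08 (SE, edgeR adjusted p = 0.012), and both genes passed without the library labelled JQ1 replicate 4. With the GC offset, neither passed (edgeR adjusted p = 0.19 and 0.34). They were the called genes of 23 remodelling ATPases and 25 accessory subunits. Of 15 cohesin genes, Nipbl, the loader, rose by 0.54 and Pds5a, a regulator of release, by 0.61 on the log2 scale (edgeR adjusted p = 0.026 and 0.048), and 9 of the 15 were higher at an unadjusted p under 0.05. Neither passed without the library labelled JQ1 replicate 4 (edgeR adjusted p = 0.057 and 0.11) or with the GC offset (0.34 and 0.30). The cohesin list had a median of 0.23, which was 0.09 with the GC offset. Smc2, the core of condensin, had 26.7, 25.6, 24.6, 18.5, 19.8 and 27.3 CPM with JQ1 and 13.6, 15.9, 15.8, 15.3, 15 and 13.7 CPM with vehicle. The log2 fold change was 0.67 ± 0.10 (SE, edgeR adjusted p = 0.0046), the groups did not overlap, and with the GC offset it did not pass (edgeR adjusted p = 0.17).

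Within DNA repair, 4 genes of the damage response kinases and checkpoint rose. Atm, the kinase that answers double-strand breaks, was at 20.3, 22.8, 22.5, 22.9, 24.1 and 18.7 CPM with JQ1 and 13.6, 16.3, 9.70, 13.3, 13.2 and 13.3 CPM with vehicle. Every JQ1-treated mouse was higher, and the log2 fold change was 0.73 ± 0.11 (SE, edgeR adjusted p = 0.0042), with 0.56 under the GC offset (edgeR adjusted p = 0.043). Smg1, the kinase of nonsense-mediated decay that belongs to the same family, had 221, 253, 186, 201, 210 and 190 CPM with JQ1 and 141, 166, 102, 118, 125 and 132 CPM with vehicle (log2 fold change 0.68 ± 0.11, SE, edgeR adjusted p = 0.0054). Atr, which answers stalled replication, rose by 0.46 and Rif1, which steers the repair of breaks, by 0.60 (edgeR adjusted p = 0.025 for both). These were the 4 called genes of 23 (17.4%, against 1.08% of all genes tested), a list with a median of 0.10, or 0.01 with the GC offset. All but Rif1 passed without the library labelled JQ1 replicate 4, and only Atm with the GC offset.

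Other repair pathways held single calls. Rev3l, the catalytic subunit of a translesion polymerase, rose by 0.52 ± 0.08 (SE, edgeR adjusted p = 0.0054) and was called in each of the 16 fits that left out 1 library, but not with the GC offset (edgeR adjusted p = 0.17). Mus81, an endonuclease of recombination, fell by 0.40, and Ercc2, a helicase of nucleotide excision, by 0.54 (edgeR adjusted p = 0.026 and 0.037). Neither passed without the library labelled JQ1 replicate 4 (edgeR adjusted p = 0.069 and 0.092) or with the GC offset (0.28 and 0.30). The 3 genes were the calls among 23 genes of mismatch repair, end joining and translesion synthesis, 39 of homologous recombination and Fanconi anaemia, and 21 of nucleotide excision, with medians of 0.07, −0.10 and −0.06. Base excision (25 genes) held 0 calls in edgeR, 6 at an unadjusted p under 0.05 and 1 call in DESeq2.

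In the lists of RNA processing, all called genes but Snrnp70 were raised. Sfpq, a paraspeckle protein that binds RNA, had 179, 210, 176, 184, 201 and 177 CPM with JQ1 and 132, 141, 114, 115, 120 and 128 CPM with vehicle. The groups did not overlap, and the log2 fold change of 0.59 ± 0.07 (SE, edgeR adjusted p = 0.00040) was 0.57 with the GC offset (edgeR adjusted p = 0.00077). The Sfpq transcript was of average GC content (49.9%). Tia1, a protein of stress granules, rose by 0.31, the SR protein Srsf10 by 0.35, and Prpf4b, a kinase of the spliceosome, by 0.30, whereas Snrnp70 of the U1 particle fell by 0.39 (edgeR adjusted p of 0.018 to 0.041). Of these 4, Tia1 alone passed without the library labelled JQ1 replicate 4, and none with the GC offset. Outside these lists, the RNA-binding protein gene Dazap1 fell by 0.41 and Ints1, of the Integrator complex, by 0.48 (edgeR adjusted p = 0.034 and 0.025), and neither passed without that library (0.086 and 0.066) or with the GC offset (0.59 and 0.49). Thoc2, of the complex that loads mRNA for export, and Cnot6, a deadenylase, rose by 0.51 and 0.46 (edgeR adjusted p = 0.0068 and 0.014). With Smg1, they were the 3 called genes of 37 in export and decay, all of which passed without the library labelled JQ1 replicate 4, and none with the GC offset. None of 20 neuronal splicing regulators was called by edgeR or DESeq2, and 5 had an unadjusted p under 0.05.

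Zinc finger genes were the largest list, with 358 tested members whose symbols begin with Zfp. Of these, 6 rose and 3 fell, a share of 2.51%, against 1.08% of all genes tested. Their median was 0.08, or −0.01 with the GC offset, and 57 were higher and 26 lower at an unadjusted p under 0.05. Zfp871 showed the largest rise, followed by Zfp729a (0.65), Zfp26 (0.60) and Zfp120 (0.59, edgeR adjusted p of 0.0068 to 0.038). Zfp120 was at 24.1 CPM in WT replicate 1, above all 6 JQ1-treated mice (14.8 to 23.4 CPM), and at 14.8 to 15.2 CPM in the other WT mice. Zfp628, Zfp219 and Zfp865 fell by 0.54 to 0.64. Without the library labelled JQ1 replicate 4, 3 raised and 1 lowered gene passed, and with the GC offset none of the 358.

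In the lists of ubiquitin ligases and deubiquitinases, the called genes were all raised. Ube3a, the neuronal ubiquitin ligase of the imprinted Angelman locus, had 44.1, 57.8, 62.8, 63.1, 49.0 and 50.5 CPM with JQ1 and 28.8, 33.6, 18.4, 21.4, 23.8 and 26.5 CPM with vehicle. It rose by 1.10 ± 0.13 (SE, edgeR adjusted p = 0.00040) without overlap, the 1 called gene of 30 ligases, 10 of which were higher and 0 lower at an unadjusted p under 0.05. Of 47 deubiquitinases, Usp9x rose by 0.97 ± 0.16, Usp34 by 0.56 ± 0.10 and Usp15 by 0.38 ± 0.08 (SE, edgeR adjusted p = 0.0068, 0.0068 and 0.031). In Usp9x, JQ1-treated mice had 99.5, 128, 139, 148, 127 and 87.7 CPM and vehicle-treated mice 73.4, 83.7, 40.5, 52.0, 60.3 and 61.9 CPM. WT replicate 1, at 93.3 CPM, lay inside the JQ1 range. Ube3a and Usp9x passed with the GC offset, and Usp34 and Usp15 did not (edgeR adjusted p = 0.22 and 0.35). Usp15 did not pass without the library labelled JQ1 replicate 4 either (edgeR adjusted p = 0.089). Outside these lists, the deubiquitinase Josd2 fell by 0.57 and the F-box gene Fbxl19 by 0.35 (edgeR adjusted p = 0.039 and 0.025), and neither passed without that library (0.098 and 0.056) or with the GC offset (0.23 and 0.84).

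**Figure D4:**
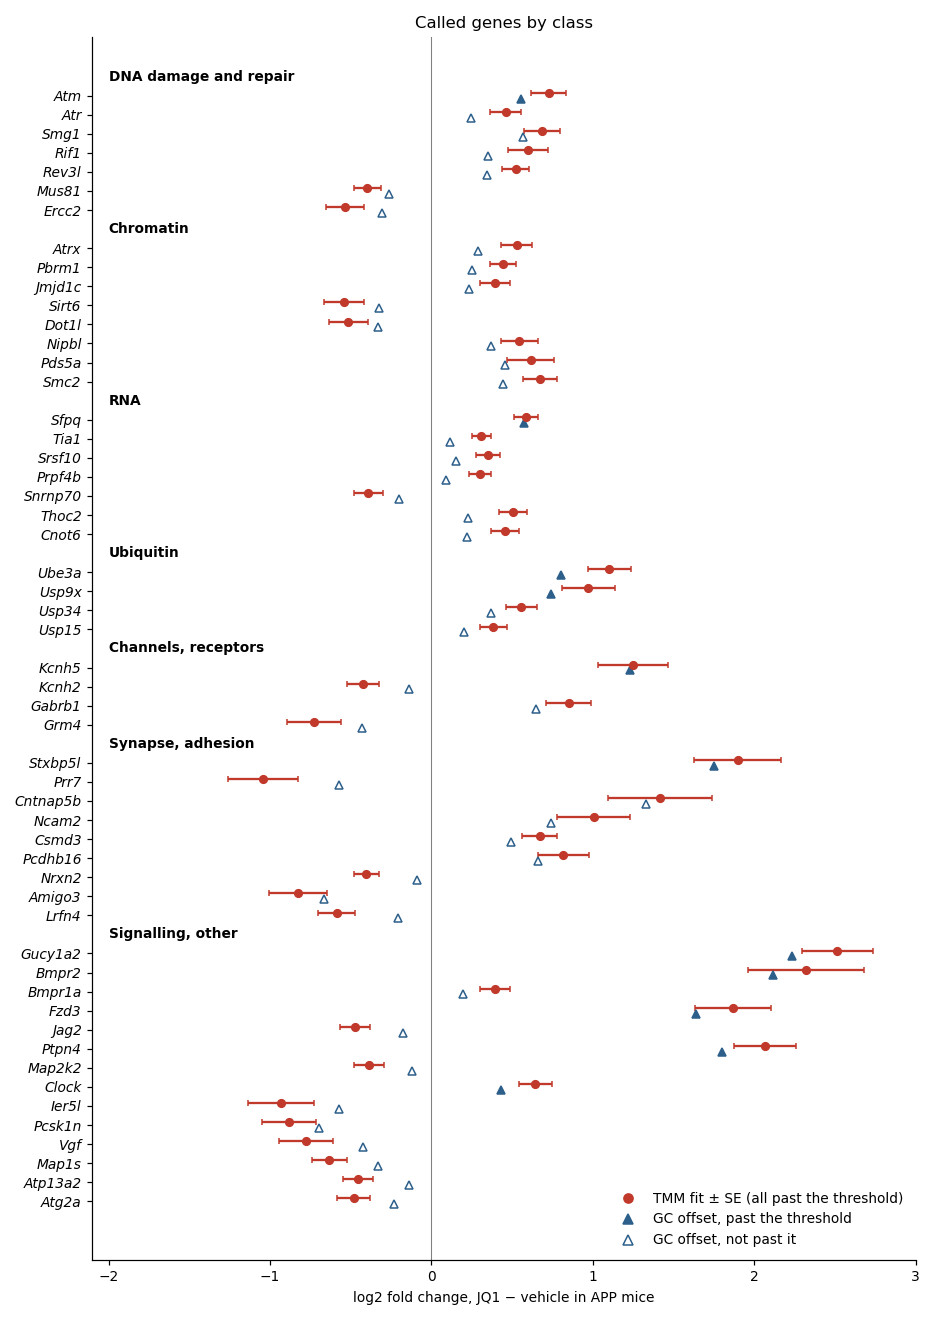
Log2 fold change (JQ1 minus vehicle in APP mice) of 53 called genes by class, circles with SE from the fit with TMM factors and triangles from the fit with the GC offset, filled where the gene passed there. Gucy1a2 (2.51), Bmpr2 (2.32) and Ptpn4 (2.07) lie farthest to the right, and Prr7 (−1.04) farthest to the left.

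Ion channels and receptors changed in few members. Of 83 potassium channel genes, Kcnh5, a channel of the ether-a-go-go family, rose from 1.37, 2.72, 1.96, 2.05, 2.50 and 1.87 CPM with vehicle to 2.70, 5.93, 4.56, 4.40, 5.33 and 6.81 CPM with JQ1. The groups overlapped only at JQ1 replicate 1 and vehicle replicate 2, and the log2 fold change was 1.25 ± 0.22 (SE, edgeR adjusted p = 0.0073), with 1.23 under the GC offset (edgeR adjusted p = 0.026). Kcnh2, of the same family, fell by 0.42 (edgeR adjusted p = 0.047), but did not pass without the library labelled JQ1 replicate 4. Of 43 sodium and calcium channel genes and 52 other channel genes, edgeR called 0, with 13 and 12 at an unadjusted p under 0.05 and 6 and 4 called by DESeq2. Gabrb1, a subunit of GABA-A receptors, had 33, 34.4, 31.1, 30.2, 30.2 and 29.1 CPM with JQ1 and 16.7, 26.6, 13.8, 16.7, 13.3 and 17.2 CPM with vehicle. Its log2 fold change was 0.85 ± 0.14 (SE, edgeR adjusted p = 0.0063), with 0.65 under the GC offset (edgeR adjusted p = 0.055).

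The 17 GABA receptor genes had the highest median of any list with all libraries, 0.26, and a median GC content of 43.1%. At an unadjusted p under 0.05, 7 were higher and 0 lower. Without the library labelled JQ1 replicate 4, the median was 0.22, under that of cohesin (0.23). With the GC offset, it was 0.10, and with the offset and without that library 0.0073. Grm4, a presynaptic glutamate receptor, fell from 14.9 to 23.5 CPM with vehicle to 8.86 to 15.9 CPM with JQ1 (log2 fold change −0.72 ± 0.17, SE, edgeR adjusted p = 0.042). The 2 groups overlapped, and the WT mice, at 9.76 to 17.4 CPM, had values within the span of both. It did not pass without the library labelled JQ1 replicate 4 (edgeR adjusted p = 0.092). Among 18 subunits of AMPA, kainate, NMDA and delta receptors, edgeR called 0, with 8 at an unadjusted p under 0.05 and 4 called by DESeq2. The nearest were Grin1 (log2 fold change −0.36, edgeR adjusted p = 0.067) and Grik5 (−0.31, edgeR adjusted p = 0.077), with a GC content of 59.4% and 61.7%.

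At the synapse, a regulator of release rose and a postsynaptic adaptor fell. Stxbp5l, or tomosyn-2, which holds back the assembly of SNARE complexes, had 32.9, 51.2, 41.3, 48.7, 45.8 and 35.2 CPM with JQ1 and 11.7, 21.0, 5.71, 6.25, 8.82 and 15.1 CPM with vehicle. All JQ1-treated mice were higher, with a log2 fold change of 1.90 ± 0.27 (SE, edgeR adjusted p = 0.0032), and it was the 1 called gene of 38 vesicle and SNARE genes. Prr7, a transmembrane adaptor of the postsynaptic density, had 5.20, 3.04, 6.83, 4.8, 4.58 and 3.37 CPM with JQ1 and 7.15, 7.12, 13.9, 12.1, 9.56 and 7.57 CPM with vehicle. Its log2 fold change was −1.04 ± 0.22 (SE, edgeR adjusted p = 0.026), and without the library labelled JQ1 replicate 4 its edgeR adjusted p was 0.058. Prr7 was the 1 called gene of 25 scaffolds, of which 8 were lower and 1 higher at an unadjusted p under 0.05, with a median of −0.14 (−0.05 with the GC offset). Among 31 postsynaptic kinases and phosphatases, Ptpn4 rose and Map2k2, a kinase of the ERK cascade, fell by 0.39 (edgeR adjusted p = 0.046), though not without the library labelled JQ1 replicate 4 (edgeR adjusted p = 0.11) or with the GC offset (0.61). None of 23 active zone genes was called by edgeR or DESeq2, and 8 had an unadjusted p under 0.05.

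Adhesion genes of the synapse passed in both directions, and they followed GC content. Of 57 tested, Cntnap5b (1.42), Ncam2 (1.0) and Csmd3 (0.67) rose and Amigo3 (−0.83), Lrfn4 (−0.59) and Nrxn2 (−0.40) fell (edgeR adjusted p of 0.0047 to 0.042). This was a share of 10.5%, against 1.08% of all genes tested. The raised genes had a GC content of 38.2% (Ncam2) to 46.2% (Cntnap5b) and the lowered genes of 56.8% (Amigo3) to 65.6% (Lrfn4). At an unadjusted p under 0.05, 19 were higher and 14 lower, and with the GC offset none of the 57 passed. Without the library labelled JQ1 replicate 4, Csmd3 was the 1 gene of the list that passed, and the other called genes had edgeR adjusted p of 0.054 (Lrfn4) to 0.096 (Cntnap5b). Csmd3, with 31.2 to 45.8 CPM with JQ1 and 21.0 to 29.4 CPM with vehicle, came nearest with the GC offset (edgeR adjusted p = 0.053). Nrxn2, a presynaptic neurexin, was at 172 to 234 CPM with JQ1, at 248 to 284 CPM with vehicle and at 188 to 240 CPM in WT mice. Of 35 protocadherins, Pcdhb16 rose by 0.82 ± 0.16 (SE, edgeR adjusted p = 0.016, and 0.17 with the GC offset). Members of this cluster resemble each other in sequence, so that reads shared between them may not have been counted.

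Of 40 immediate early genes, 1 was called, and it fell. The median of the list was −0.29, −0.31 without the library labelled JQ1 replicate 4 and −0.18 with the GC offset, with 10 lower and 0 higher at an unadjusted p under 0.05. The median GC content of the list was 55.6%, which lies in the second highest class, whose median over all genes was −0.17. Ier5l had 1.12 to 1.65 CPM with JQ1 and 2.08 to 3.25 CPM with vehicle, a log2 fold change of −0.93 ± 0.20 (SE, edgeR adjusted p = 0.032, with 0.071 without the library labelled JQ1 replicate 4 and 0.42 with the GC offset), and DESeq2 called 6 of the 40, all lower. Vgf and Pcsk1n were the called genes of 11 granins and processing enzymes, and 0 of 21 peptide precursors was called by either tool, with 2 at an unadjusted p under 0.05. Somatostatin (Sst), of interneurons, was at 156 to 174 CPM with JQ1 and 165 to 229 CPM with vehicle (log2 fold change −0.32, edgeR adjusted p = 0.12).

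Receptors and clock genes gave further single calls. In the BMP and TGF-beta family (23 genes), Bmpr1a, a type I receptor, rose with Bmpr2, by 0.39 ± 0.09 (SE, edgeR adjusted p = 0.046, with 0.086 without the library labelled JQ1 replicate 4 and 0.47 with the GC offset). In the Wnt and Notch list (33 genes), Fzd3 rose and the Notch ligand Jag2 fell by 0.47 ± 0.09 (SE, edgeR adjusted p = 0.017, with 0.054 without that library and 0.50 with the GC offset). Clock, a core activator of the circadian cycle, had 64.4, 80.5, 85.5, 83.0, 75.6 and 70.5 CPM with JQ1 and 53.3, 56.5, 38.9, 47.2, 45.4 and 52.8 CPM with vehicle. The groups did not overlap (log2 fold change 0.64 ± 0.10, SE, edgeR adjusted p = 0.0047), and WT replicate 1 had 65.9 CPM, inside the JQ1 range, against 49.1 to 57.3 CPM in the other WT mice. It was the 1 called gene of 22 in the core clock, and it passed with the GC offset (edgeR adjusted p = 0.032). Of 48 lysosomal and autophagy genes, Atp13a2, a lysosomal transporter of polyamines, and Atg2a, a lipid transfer protein of the autophagosome, fell by 0.46 and 0.48 (edgeR adjusted p = 0.025 and 0.029). Neither passed without the library labelled JQ1 replicate 4 (edgeR adjusted p = 0.066 and 0.079) or with the GC offset (0.53 and 0.43).

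Genes of amyloid and of the microglial reaction were not called, and here the library labelled JQ1 replicate 4 moved the values. None of 17 genes of APP and its secretases was called by edgeR, with 2 at an unadjusted p under 0.05, and DESeq2 called 1, the alpha-secretase gene Adam10 (98.8 to 124 CPM with JQ1, 84.7 to 105 CPM with vehicle, log2 fold change 0.27, edgeR adjusted p = 0.074). The log2 fold change of Thy1 was −0.30 with this library and −0.15 without it. Over 29 genes of plaque-associated microglia, the median was −0.29 with all libraries and −0.06 without it, and edgeR and DESeq2 called 0, with 0 at an unadjusted p under 0.05. The summed level of these genes was 3855 CPM in this library, 5542 to 8003 CPM in the other JQ1-treated mice, 5267 to 8461 CPM with vehicle and 3954 to 4070 CPM in WT mice. In bulk tissue, fewer cells of a type and less RNA per cell cannot be told apart.

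Antigen presentation (19 genes) had the lowest median of any list with all libraries, −0.38. Without the library labelled JQ1 replicate 4 it was −0.20, above that of immediate early genes (−0.31). No member was called by either tool, and 1 had an unadjusted p under 0.05. The median of 19 complement genes was 0.0010 with this library and 0.21 without it, and that of 35 interferon response genes 0.01 and 0.16. Complement held 0 calls in both tools and 3 genes at an unadjusted p under 0.05, all higher, and the interferon list held 0 and 0. Fcrls, a receptor of resting microglia, had 3.04 to 6.99 CPM with JQ1 and 6.15 to 36.5 CPM with vehicle (log2 fold change −1.64 ± 0.40, SE, edgeR adjusted p = 0.055), and it alone was called by DESeq2 among the 18 genes of resting microglia.

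**Figure D5:**
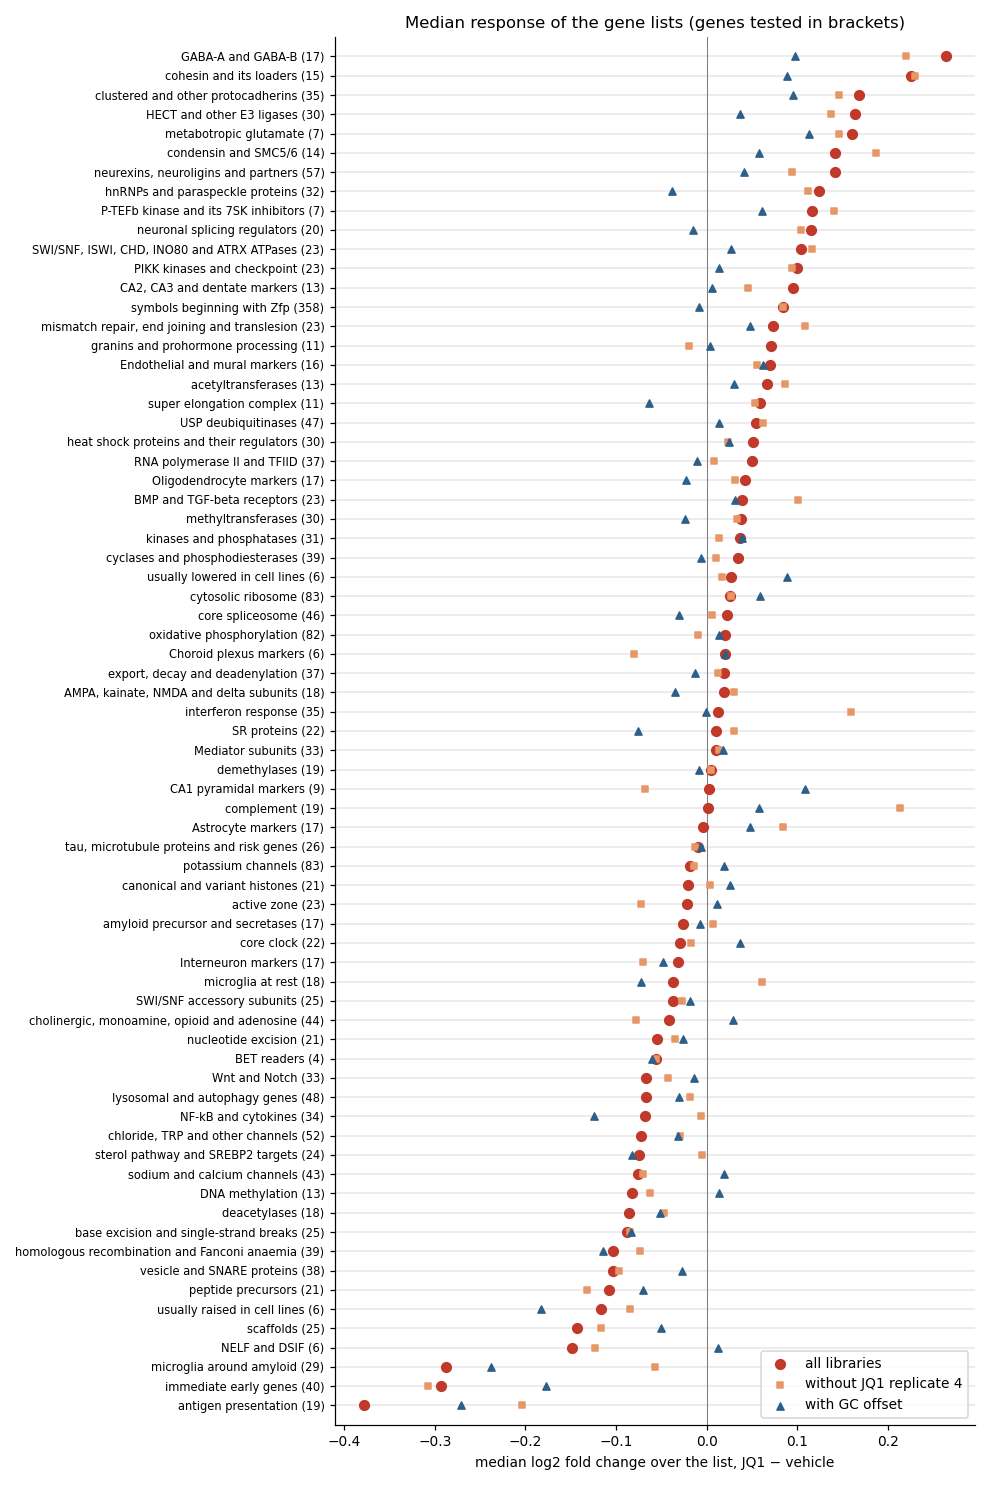
Median log2 fold change (JQ1 minus vehicle in APP mice) over each of 71 gene lists, with the number of genes tested in brackets, from all libraries, without the library labelled JQ1 replicate 4, and with the GC offset. With all libraries, GABA receptors lie highest (0.26) and antigen presentation lowest (−0.38). Without that library, cohesin lies highest (0.23) and immediate early genes lowest (−0.31). The medians of plaque-associated microglia (−0.29 and −0.06), complement (0.0010 and 0.21) and antigen presentation (−0.38 and −0.20) differ most with and without that library.

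Large housekeeping lists had medians near 0. Oxidative phosphorylation (82 genes) had a median of 0.02 and cytosolic ribosomal proteins (83 genes) of 0.03, and neither held a call in edgeR, with 3 and 8 at an unadjusted p under 0.05 and 1 call each in DESeq2. Sterol synthesis (24 genes, median −0.075) and heat shock genes (30 genes, median 0.05) also held 0 calls in edgeR, with 1 and 5 at an unadjusted p under 0.05 and 0 and 1 in DESeq2. Among the marker lists of CA1, CA2, CA3 and dentate neurons, interneurons, astrocytes, oligodendrocytes, endothelial and mural cells and choroid plexus, edgeR called 0 genes, and 0 to 3 genes of each list had an unadjusted p under 0.05. DESeq2 called 1, Erbb4 of interneurons (58.8 to 96.2 CPM with JQ1, 42.0 to 59.0 CPM with vehicle, log2 fold change 0.46, edgeR adjusted p = 0.11). The medians of these lists lay between −0.03 and 0.10. These medians do not show differences of single libraries, such as those of Tdo2 and Ttr given above. Wfs1, the marker of CA1 neurons, was at 186 to 291 CPM with JQ1 and 268 to 339 CPM with vehicle (log2 fold change −0.39, edgeR adjusted p = 0.20).

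Promoters of the called genes were compared because their transcripts differed so much in GC content. RefSeq promoter windows of GRCm38.p6, from 250 bases before to 50 bases after the start, were found for 77 of the raised and 65 of the lowered genes. Their median GC content was 60.7% in raised genes, 63.3% in lowered genes and 60.3% over 12443 genes tested, and they held a median of 22, 22 and 19 CG dinucleotides. The promoters of Lnpep, raised, and Prr7, lowered, are printed below in the direction of transcription, with each CG in capitals, since their transcripts have a GC content of 40.3% and 69.0%. The Lnpep window (minus strand, chr17:17624440-17624739) starts 561 bases from the GENCODE start, and the Prr7 window is on the plus strand at chr13:55464017-55464316.
Lnpep: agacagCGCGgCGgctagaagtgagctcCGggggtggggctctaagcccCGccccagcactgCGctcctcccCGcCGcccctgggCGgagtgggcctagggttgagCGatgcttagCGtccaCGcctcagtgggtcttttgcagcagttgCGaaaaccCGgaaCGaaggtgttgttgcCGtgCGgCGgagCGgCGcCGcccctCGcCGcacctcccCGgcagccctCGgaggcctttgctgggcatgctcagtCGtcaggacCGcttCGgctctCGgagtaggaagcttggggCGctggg
Prr7: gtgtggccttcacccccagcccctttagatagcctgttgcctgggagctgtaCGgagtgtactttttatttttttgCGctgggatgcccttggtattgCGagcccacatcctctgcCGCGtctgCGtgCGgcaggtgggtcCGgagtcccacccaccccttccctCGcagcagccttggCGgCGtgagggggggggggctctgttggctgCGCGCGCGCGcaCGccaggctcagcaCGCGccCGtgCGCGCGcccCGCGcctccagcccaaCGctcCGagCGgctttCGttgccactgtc
These windows had a GC content of 69.3% and 67.7% and held 30 and 29 CG dinucleotides. The promoters of Lnpep and Prr7 were thus alike in composition where their transcripts were not.

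In the separate experiment on young WT mice of 3 months, JQ1 at the same dose was given for 13 days, and the deposited values are FPKM, which were tested on the log2(FPKM + 0.1) scale with limma. Of the 105 genes raised in APP mice, 81 had a value there, with 48 above 0 and 33 below 0 and a median log2 difference of 0.010. Of the 79 lowered genes, 55 had a value, with 52 above 0 and a median of 0.11, against 54.2% above 0 over the 11843 genes with values in both experiments. None of either set passed an adjusted p of 0.05 in limma, and 2 and 5 had an unadjusted p under 0.05. Lnpep was at 17.1 ± 1.13 FPKM with JQ1 and 17.0 ± 1.5 FPKM with vehicle (SD, n = 8 each). Gucy1a2 was at 9.59 ± 0.954 and 8.63 ± 1.51 FPKM, and Stxbp5l at 24.8 ± 3.09 and 25.2 ± 4.32 FPKM. Pcsk1n, lowered in APP mice, was at 15.5 ± 2.85 FPKM with JQ1 and 12.1 ± 3.34 FPKM with vehicle in young mice. By class of GC content, the median log2 difference in young mice ran from 0.023 in the lowest through −0.0061 to 0.056 in the highest class, so the GC trend of the APP mice was not seen there. The highest class held 59 of the 79 lowered genes, so the 54.2% over all genes is not matched to these genes in GC content. Age, strain, transgenes, days of treatment and processing all differ between the experiments, and their difference was not tested.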

How the data were processed

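CA1 RNA was sequenced on a HiSeq2000. For the aged mice, the authors aligned reads to mm10 with STAR, allowing 2 mismatches, and deposited raw counts per gene from htseq, without normalization. For the young mice, the authors deposited FPKM per locus from Cufflinks and Cuffdiff, scaled to transcript length and depth, so that depth is unknown. Submitters' notes also name CASAVA 1.8.2 and TopHat. Samples were grouped by label. Nothing says whether replicates were separate litters or cages, so p-values measure the spread between these mice.

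The last 5 summary lines were dropped. The 16962 genes kept by filterByExpr of 38355 were tested in edgeR 4.0.16 (TMM, robust quasi-likelihood, R 4.3.3) in 1 fit of 3 groups, with Benjamini-Hochberg adjustment and a threshold of 0.05. CPM use TMM library sizes. The SE of a log2 fold change in this fit was its absolute value divided by the square root of the F statistic, whose spread came from all 3 groups. Symbols, coordinates, exonic length and GC content (longest transcript, known for 98.9% of genes) came from GENCODE mouse release 21 on the same build. The GC offset was a spline of 5 degrees of freedom fitted per library. FPKM of at least 0.5 in 8 of 16 samples were tested in limma 3.58.1. DESeq2 1.42.0 was an alternative, among the other normalizations, filters, covariates, the replicate number as a block and leaving out each library. The test was checked on simulated data.

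Members and gene lists were chosen with earlier results of these data known. Named genes were the 10 largest changes in each direction among called genes with separated groups, in each list every called gene (the 4 largest changes where a direction held more, and the 2 smallest p where none was called), the genes that check the labels, and the BET readouts. Not all of them are described, and some items are not reported here. Lists are described by counts and medians, not tested. Software in Python 3.11.15 was pandas 2.3.3, numpy 2.4.6 and matplotlib 3.10.9.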

Additional observations from a re-analysis of the deposited data

Results flagged for a closer look

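Of 78 sets of values examined (a gene's level or a library measure in 1 group), 6 held a library farther from the others than Dixon's 95% limit, and chance flags about 1 in 20 sets. In JQ1-treated mice, the library labelled replicate 4 had 820 CPM of Thy1 (the nearest other had 1618 CPM). JQ1 replicate 6 had 13.9 CPM of Xkr4, where the nearest other had 23.1 CPM. In vehicle-treated APP mice, replicate 4 had 0.754 CPM of Gucy1a2 (nearest 2.03 CPM), replicate 2 had 26.6 CPM of Gabrb1 (17.2 CPM), and replicate 1 had 189 CPM of Vgf (110 CPM). In WT mice, replicate 3 had 19.5 CPM of Stxbp5l (13.6 CPM).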

How the results depend on the processing

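The count of 184 called genes (105 raised, 79 lowered) depended on the fit, while the direction of the 184 held wherever they were tested, except that Cbarp, lowered, had a log2 fold change of 0.0102 with an offset for GC content and length. DESeq2 called 749 (371 raised, 378 lowered). The GC offset left 25 (21 and 4), the offset for GC content and length 42 (35 and 7), the library's GC slope as a covariate 5 (5 and 0), and the GC offset without the library labelled JQ1 replicate 4 left 15 (15 and 0). With the share of reads outside exons as a covariate, 517 passed (198 and 319). Leaving out JQ1 replicates 3 and 4 gave 56 (47 and 9), and leaving out the 4 libraries apart on the first component 76 (52 and 24). Both of these were chosen after seeing the data. Leaving out 1 library gave 65 (without JQ1 replicate 2) to 446 (without WT replicate 1), with 50 to 224 raised (the latter without vehicle replicate 2) and 11 (without JQ1 replicate 4) to 240 lowered (without WT replicate 1). Among the others, JQ1 replicates 1 (274) and 3 (76), vehicle replicates 2 (333), 3 (78), 4 (120), 5 (86) and 6 (115), WT replicates 3 (114) and 4 (115), and JQ1 replicate 6 (126) moved the total most. The cause of these shifts was not tested.

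With the replicate number as a block in APP mice, 95 genes passed (57 raised, 38 lowered), and 12 (12 and 0) with the block and the GC offset. Deviations of mice with the same number correlated at 0.33, 0.28, −0.11, 0.34, −0.036 and −0.069, and 3 of 6 JQ1-treated mice correlated best with their own number. No label says that a number marks a shared litter or day, and whether some numbers pair mice was not settled. In young mice, 1 locus passed in limma, and 0 with the replicate block or with no filter on low values. At this depth and spread, small changes may have gone undetected.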
